A study of Homo sapiens with 12 samples.

Results

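The genes described here are the amino acid transporter families SLC1, SLC3, SLC6, SLC7, SLC36, SLC38 and SLC43 of the solute carrier superfamily. They were chosen by gene symbol alone, with the highest summed count kept where a symbol had more than one entry, which gave 59 genes of the 23500 in the table. Their mRNA was measured by RNA sequencing in HEK293T cells, a human embryonic kidney line transformed with adenovirus DNA and carrying SV40 large T antigen, and in R1, a single clone selected from HEK293T for growth without methionine. The cells spent 12 h either with methionine (+Met) or with its precursor homocysteine in its place (−Met+Hcy), and each of the 4 groups had 3 libraries. The limiting media of the study were made with dialyzed serum and without cystine, and cysteine, glutamine and vitamin B12 were added. R1 libraries are identified by their titles, and their cell line field reads HEK293T. Nothing in the sources used here says that the 3 libraries of a group came from separate cultures, so p-values measure the spread between these libraries, which may be technical.

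Amino acids cross the plasma membrane through carriers that differ in substrate and in driving force. Heteromeric exchangers pair a heavy chain of the SLC3 family, needed for surface expression, with an SLC7 light chain that does the transport. The LAT1 exchanger (SLC7A5 with SLC3A2) brings in methionine and other large neutral amino acids, while the xCT exchanger (SLC7A11 with SLC3A2) takes up cystine in return for glutamate. Several carrier genes are known targets of ATF4, the transcription factor translated when cells lack amino acids, which binds C/EBP-ATF response elements in the DNA. Homocysteine can be turned into methionine inside the cell.

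Promoter sequences are shown first, because all 10 ATF4 targets listed among the transporters had values of one sign in HEK293T cells and these sequences can be searched for the element that ATF4 binds. The list was chosen with earlier results of these data known. RefSeq promoter windows of GRCh38.p14, 250 bases before and 50 bases after a start site, were found for 44 of the 59 symbols, with 66 windows in all. The core of the response element, TGATGNAA, was searched on both strands as a single motif. It was present in 6 member windows (9.09%), against 1270 of all 35116 windows of that length (3.62%). A match describes letters and does not show a site in use. The other windows that the table holds for SLC1A3, SLC1A4, SLC1A5, SLC3A2 and SLC38A1 lacked the motif. The 4 windows printed belong to genes whose values are followed below, and capitals mark the motif, which reads TTGCATCA or TTACATCA where it lies on the other strand.
SLC1A4, chr2:64989149-64989448, plus strand: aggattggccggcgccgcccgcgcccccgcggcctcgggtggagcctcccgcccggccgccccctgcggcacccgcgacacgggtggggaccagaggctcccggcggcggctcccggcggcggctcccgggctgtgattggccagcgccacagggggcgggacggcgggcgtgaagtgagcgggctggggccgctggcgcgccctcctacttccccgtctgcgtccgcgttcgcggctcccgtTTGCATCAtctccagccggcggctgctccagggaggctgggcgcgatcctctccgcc
SLC1A5, chr19:46784765-46785064, minus strand: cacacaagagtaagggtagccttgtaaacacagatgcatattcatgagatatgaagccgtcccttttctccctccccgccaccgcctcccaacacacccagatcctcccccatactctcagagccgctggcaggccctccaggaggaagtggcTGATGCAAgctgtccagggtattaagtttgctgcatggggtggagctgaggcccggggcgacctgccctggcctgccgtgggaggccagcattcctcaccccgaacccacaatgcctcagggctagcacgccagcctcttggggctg
SLC3A2, chr11:62881449-62881748, plus strand: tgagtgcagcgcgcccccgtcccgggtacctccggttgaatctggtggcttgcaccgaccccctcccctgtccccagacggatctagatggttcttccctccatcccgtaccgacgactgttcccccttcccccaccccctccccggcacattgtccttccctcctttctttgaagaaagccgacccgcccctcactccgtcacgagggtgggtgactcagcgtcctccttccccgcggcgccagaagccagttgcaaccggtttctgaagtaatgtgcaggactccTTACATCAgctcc
SLC1A3, chr5:36596338-36596637, plus strand: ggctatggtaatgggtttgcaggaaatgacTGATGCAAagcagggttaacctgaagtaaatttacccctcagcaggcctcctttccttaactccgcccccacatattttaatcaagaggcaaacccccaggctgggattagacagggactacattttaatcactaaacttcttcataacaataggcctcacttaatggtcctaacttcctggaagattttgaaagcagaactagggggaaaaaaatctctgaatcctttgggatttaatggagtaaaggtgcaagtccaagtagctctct
Counted from the start site of its window, the motif begins 7 bases before it in SLC1A4 (offset -7) and 97 bases before it in SLC1A5 (offset -97). It begins further upstream in SLC1A3 (offset -220) and 37 bases after the start site in SLC3A2. The printed windows of SLC1A4, SLC1A5 and SLC3A2 lie inside the annotated gene, downstream of its first base (46788594 in SLC1A5 and 62856004 in SLC3A2). SLC7A1 and SLC38A1 held TGATGAAA, at offsets of 7 and -4. The first 3 printed genes with SLC7A1 belong to the ATF4 targets listed here, and SLC1A3, the glial glutamate transporter EAAT1, does not. Of the other ATF4 targets, SLC6A9, SLC7A5, SLC38A2 and SLC43A1 had windows, and these lacked the motif. Windows were not found for 15 members, SLC7A11, SLC7A3 and SLC6A6 among them.

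The deposited values are whole-number estimated counts, summing to 12664158 to 18771349 per library. Levels below are CPM, counts scaled to a common library total of 1e6. Libraries of a group differed from each other by a chi-square per gene of 7.37 to 94.6, except R1 −Met+Hcy replicate 3, for which this value was 214 against replicate 1 and 245 against replicate 2. Its deviation from them had a Spearman's rho of -0.744 with GC content over 11043 genes and of -0.679 over 28 members, a description of genes that share a library. Libraries of the other groups had such trends too. Their rho ran from -0.338 to 0.537 over all genes and from -0.699 to 0.672 over the members, both extremes of the latter in HEK293T +Met. The members summed to 917 CPM in R1 −Met+Hcy replicate 3, against 1531 and 1658 in replicates 1 and 2. The library stayed in the 12-library fit, and calls that change without it are given beside the gene or, for genes not described singly, by count. Such gains were found across all genes. Without it, the share of all genes called went from 4.63% to 10.3% in the HEK293T medium response and from 0.00583% to 0.0176% in that of R1. In the difference of the responses it went from 0.0583% to 1.38%, and in R1 against HEK293T cells in +Met from 7.66% to 14.3%. Of the HEK293 cell markers, 4 of 6 reached 1 CPM in HEK293T cells and 6 of 6 in R1 cells, with PAX2 at 0.205 to 6.06 CPM. Of 7 markers of MDA-MB-468 and other epithelial lines, KRT5, KRT6A and KRT16 were at 0 in all 12 libraries, EGFR had 2.57 to 19.1 CPM and EPCAM 0.245 to 6.55 CPM. In sum they had 3.82 to 5.69 CPM in HEK293T and 9.72 to 20.1 CPM in R1 cells in +Met, and EGFR was called higher in R1. In the same comparison PAX2, NEFM, ENO2 and LHX1 of the HEK293 markers were called, 3 higher and 1 lower in R1. The part of these markers in the results was not tested, and markers of blood, endothelium and liver summed to at most 1.90 CPM. The summed HEK293 markers were lower in −Met+Hcy (426 to 540 CPM) than in +Met (713 to 820 CPM) in HEK293T cells. VIM, at 305 to 834 CPM, made up most of that sum and was the marker called lower, while 4 of the 6 markers had a log2 fold change above 0.

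Both lines expressed members of every family. Of the 59 members, 33 reached 1 CPM as the mean of a group (32 in each line, with SLC6A17 reaching it in R1 alone and SLC7A3 in HEK293T alone), and 19 of these reached 20 CPM. A further 9 were tested at under 1 CPM in every group. The remaining 17 were under the summed count of 10 needed for a test, and 8 of these had no count in any library (SLC1A6, SLC1A7, SLC6A2, SLC6A3, SLC6A5, SLC6A7, SLC6A18 and SLC38A11), which allows up to 3 counts summed over the libraries. The absent genes include carriers of dopamine, noradrenaline and glycine that mark neurons. By family, the genes that reached 1 CPM were both heavy chains, 4 of 8 light chains, 3 of 5 cationic carriers, 4 of 7 SLC1 genes, 7 of 11 SLC38 genes, 2 of 3 SLC43 genes and 3 of 4 SLC36 genes. In SLC6 they were 6 of the 12 carriers of monoamines, GABA, taurine, creatine or glycine and 2 of the 7 amino acid carriers.

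Per kilobase of the canonical transcript, SLC3A2 stood first in all 4 groups. In HEK293T cells in +Met it had 152 ± 9.65 CPM per kb (SD, n = 3), followed by SLC1A5, the glutamine carrier ASCT2, at 90.5 ± 8.76. SLC7A5 (56.5 ± 2.84) and the creatine transporter SLC6A8 (56.2 ± 8.51) came next and overlapped between libraries. SLC6A15, a carrier of branched-chain amino acids and methionine, had 24.8 ± 1.09 CPM per kb, overlapping SLC38A2, the sodium-coupled carrier SNAT2, at 22.9 ± 4.76. The order rests on the length used. With the mean length of a gene's coding transcripts, SLC6A8 (179 CPM per kb) stood above SLC1A5 (163) and SLC3A2 (160). In −Met+Hcy, SLC3A2 reached 418 ± 32.5 CPM per kb in HEK293T cells, SLC1A5 185 ± 10.5 and SLC7A5 102 ± 19.2, and SLC38A2 (49.4 ± 1.59) stood above SLC6A8 (43.6 ± 9.80), with overlap.

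**Figure D1:**
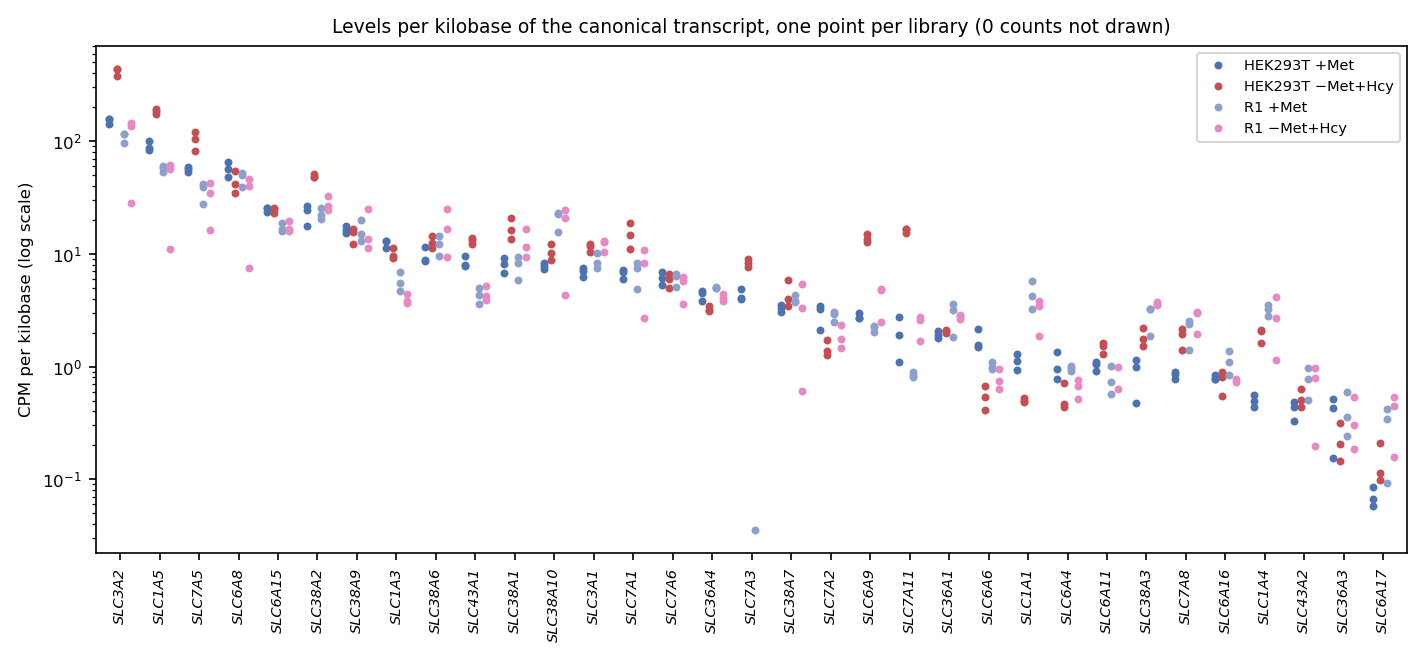
Levels of the 33 members that reached 1 CPM as a group mean, in CPM per kilobase of the canonical transcript on a log axis, with 1 point per library coloured by group. SLC3A2 is highest, and in R1 cells SLC7A3 appears at a single point, since 5 of its 6 libraries there had 0 counts.

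All members together held 1744 ± 74.8 CPM in HEK293T cells in +Met and 3134 ± 280 in −Met+Hcy (SD, n = 3), and no library of one medium overlapped the other. In R1 cells they held 1452 ± 122 in +Met and 1369 ± 397 in −Met+Hcy, or 1595 as the mean of −Met+Hcy replicates 1 and 2, above the +Met mean. A 2-sided exact permutation test gave p = 0.1 in HEK293T cells, the smallest that 3 libraries against 3 allow, and p = 0.9 in R1 cells. In these bulk samples, fewer cells of a kind and less RNA per cell cannot be told apart.

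In HEK293T cells, −Met+Hcy medium went with more mRNA for the cystine exchanger SLC7A11, the glycine transporter SLC6A9 and the small neutral amino acid carrier SLC1A4, and with less for the taurine transporter SLC6A6, the glutamate carrier SLC1A1, the cationic carrier SLC7A2 and the serotonin transporter SLC6A4. These were the 7 of 42 tested members called by edgeR's quasi-likelihood test, which required a change beyond 1 on the log2 scale in either direction and a p under 0.05 after Benjamini-Hochberg adjustment over all 17162 genes. They were 16.7% of the members, where 4.63% of all genes were called. The 3 higher genes made 7.14% against 3.04%, and the 4 lower genes 9.52% against 1.59%. By the adjusted p alone, 4 were higher and 5 lower, with SLC38A2 and SLC36A4 added (4.25% and 2.78% of all genes). At an unadjusted p under 0.05 there were 17 members (40.5%, against 22.4% of all genes). Without overlap between media, 20 members (47.6%) were higher and 5 (11.9%) lower in CPM, against 38.6% and 9.8% of all genes.

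CPM and fold changes are on different scales here. The log2 fold changes are the model's after TMM scaling, whose factors were 0.828 to 0.882 in HEK293T +Met libraries and 0.993 to 1.086 in the −Met+Hcy libraries. Without those factors, as in the CPM, the log2 fold changes of HEK293T cells were higher by a median of 0.29 over all genes. Without the factors, 7 members were called higher and 2 lower, in place of 3 and 4, and of all 17162 genes 1211 were higher and 103 lower, in place of 521 and 273. None of the 7 called genes changed direction in any of the alternatives.

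The largest increase among the members called was in SLC7A11 (ENSG00000151012, chromosome 4, 138164097 to 138242349; gene positions are those of GENCODE release 44 on GRCh38). It had 10.6, 26.6 and 18.3 CPM in the +Met libraries of HEK293T cells and 161, 159 and 148 in −Met+Hcy. Every −Met+Hcy library lay above every +Met library, where replicates differed more from each other. The log2 fold change was 2.79 (SE 0.273, adjusted p = 0.000459), and the call held in all 23 alternatives. Of its 9645 bases, 865 are shared with the antisense gene SLC7A11-AS1, and since the strand used in counting is not given in the sources used here, reads there cannot be assigned to either.

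Its partner SLC3A2 (ENSG00000168003, chromosome 11, 62856004 to 62888880), the heavy chain 4F2hc, had 297, 296 and 265 CPM in +Met and 831, 817 and 718 in −Met+Hcy. The media were far apart and each was even across its libraries. Yet the log2 fold change of 1.17 (SE 0.386) did not pass, with an adjusted p of 0.0932. The spread in the model is shared by all 4 groups, and SLC3A2 ranged from 53.6 to 274 CPM in R1 −Met+Hcy. Without replicate 3 of that group, the fold change was 1.17 with an SE of 0.123 and an adjusted p of 6.49e-05. Over the 23 alternatives the adjusted p ran from 1.46e-05 to 0.25, and 7 of them called the gene.

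SLC7A5 (LAT1), the main methionine entry route of many lines, had 257, 271 and 245 CPM in +Met and 546, 473 and 371 in −Met+Hcy. All −Met+Hcy libraries were above all +Met libraries, and the log2 fold change of 0.55 (SE 0.260, adjusted p = 0.240) did not pass. It had an adjusted p of 0.0288 without R1 −Met+Hcy replicate 3 (0.0032 to 0.472 over the alternatives), still under the threshold on the fold. The other light chains were lower in level. SLC7A8 (LAT2) had 3.56 ± 0.273 and 7.76 ± 1.67 CPM (SD, n = 3, +Met then −Met+Hcy) and SLC7A6 (y+LAT2) had 38.1 ± 4.95 and 36.8 ± 5.31, neither called. SLC7A8, at a log2 fold change of 0.84, also had an adjusted p of 0.0340 without that library, with 0.0142 to 0.366 over the alternatives. In SLC7A6, 3372 of 6255 bases are shared with SLC7A6OS on the opposite strand. SLC3A1 (rBAT), the heavy chain of kidney and gut, had 20.6 ± 2.05 and 34.0 ± 2.81 CPM, with 1278 of its 2969 bases shared with PREPL on the other strand and 1761 with a protein-coding gene (ENSG00000285542) on its own strand, so that its counts are uncertain. Its known light chains SLC7A9 and SLC7A13 were near 0.

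The mRNA levels of the heteromer genes relative to each other also differed between media in HEK293T cells. Protein and assembled heteromers were not measured. Set per kilobase against the sum of 6 light chains, SLC3A2 stood at 2.47, 2.23 and 2.23 in the +Met libraries of HEK293T cells and at 3.04, 3.36 and 3.66 in −Met+Hcy. SLC7A11 made up 1.72, 3.91 and 3.01% of the light chains in +Met and 11.5, 12.8 and 14.7% in −Met+Hcy. The media did not overlap in either measure. The share of SLC7A5 was 86.0 ± 2.15% in +Met and 80.5 ± 2.15% in −Met+Hcy (SD, n = 3). Each of these gave p = 0.1 in a 2-sided exact permutation test, the smallest the design allows. In R1 cells the SLC7A11 share was also separate, at 1.72, 2.36 and 1.65% in +Met and 5.91, 4.76 and 6.84% in −Met+Hcy (exact permutation p = 0.1). The ratio of SLC3A2 to the light chains there overlapped, at 2.25, 2.75 and 2.37 and then 2.95, 2.65 and 1.15 (exact permutation p = 0.9).

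Among the sodium-dependent neutral carriers, SLC1A4 (ASCT1, ENSG00000115902, chromosome 2, 64988477 to 65023865), a carrier of serine, alanine and cysteine, had 2.57, 1.99 and 2.26 CPM in +Met and 9.47, 9.58 and 7.37 in −Met+Hcy. Its lowest −Met+Hcy library was well above its highest +Met library. The log2 fold change was 1.65 (SE 0.354, adjusted p = 0.0176). The call was lost in 5 of 12 fits that left out a library, namely each +Met library and −Met+Hcy replicates 1 and 2 of HEK293T cells, with an adjusted p of at most 0.0757 over the alternatives. Its relative SLC1A5 had 289, 251 and 242 CPM in +Met and 561, 536 and 501 in −Met+Hcy. Here too the media were separate, and the fold change of 0.73 had an SE of 0.398 and an adjusted p of 0.303. Without R1 −Met+Hcy replicate 3, in which SLC1A5 had 31.9 CPM against 164 and 176, the adjusted p was 0.00119, in a range of 0.000129 to 0.502 over the alternatives. Of the 2882 bases of SLC1A5, 780 are shared with an antisense noncoding gene.

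SLC6A9 (GlyT1, ENSG00000196517, chromosome 1, 43991500 to 44031467) takes up glycine. It had 8.70, 9.52 and 8.69 CPM in +Met and 47.7, 43.4 and 40.5 in −Met+Hcy, a wide gap between tight groups. The log2 fold change was 1.99 (SE 0.214, adjusted p = 0.000537) and was called in all 23 alternatives.

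The SNAT genes, sodium-coupled carriers of neutral amino acids, had smaller values. SLC38A2 had 84.2, 128 and 117 CPM in +Met and 233, 232 and 246 in −Met+Hcy. The media were separate, and the log2 fold change of 0.82 (SE 0.219, adjusted p = 0.0436) passed the adjusted p but not the threshold on the fold. SLC38A1 (SNAT1) had 55.3, 74.6 and 66.2 CPM in +Met and 169, 131 and 111 in −Met+Hcy, also separate, with a fold change of 0.77 (adjusted p = 0.122). Its adjusted p without R1 −Met+Hcy replicate 3 was 0.00868, with 0.00305 to 0.335 over the alternatives. Of the 10 tested SLC38 genes, 9 were above 0, with a median log2 fold change of 0.77, where the median of all genes was 0.03. None was called by edgeR's quasi-likelihood test or DESeq2, and 3 of the 10 had an unadjusted p under 0.05, where 22.4% of all genes did. The median leans on SLC38A4, SLC38A5 and SLC38A8, at 0.88 to 1.08, which were under 1 CPM in every group. Among those that reached 1 CPM, SLC38A3 was at 0.77, like SLC38A1, and SLC38A6, SLC38A7 and SLC38A10 were at 0.10 to 0.13. The lysosomal arginine sensor SLC38A9 was the member below 0, at -0.45 (adjusted p = 0.461). SLC38A10 (35.2 ± 2.12 and 46.8 ± 7.66 CPM) and SLC38A6 (15.5 ± 2.63 and 20.3 ± 2.40 CPM, SD, n = 3) were not called.

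The cationic amino acid transporters, which bring in arginine and lysine, did not share a direction. SLC7A1 (CAT1) had 44.2, 53.2 and 50.6 CPM in +Met and 138, 107 and 81.3 in −Met+Hcy, separate but uneven, with a log2 fold change of 0.84 (SE 0.356, adjusted p = 0.186), or an adjusted p of 0.00891 without R1 −Met+Hcy replicate 3 and 0.00236 to 0.420 over the alternatives. SLC7A3 (CAT3) had 9.01, 10.8 and 8.88 CPM and then 20.3, 17.3 and 18.6, with a fold change of 0.68 (adjusted p = 0.226), or an adjusted p of 0.0189 without that library and 0.00467 to 0.447 over the alternatives. SLC7A2 (CAT2, ENSG00000003989, chromosome 8, 17497088 to 17570573) fell. It had 16.0, 24.6 and 26.1 CPM in +Met and 13.1, 10.6 and 9.67 in −Met+Hcy, with the highest library of one medium below the lowest of the other. The log2 fold change was -1.29 (SE 0.229, adjusted p = 0.00694). The call was lost without −Met+Hcy replicate 2 of HEK293T cells and without scaling factors.

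The strongest decrease was in SLC6A6 (ENSG00000131389, chromosome 3, 14402576 to 14489349), which imports taurine, an end product of the sulfur amino acids. It had 10.01, 14.04 and 9.61 CPM in +Met and 4.35, 3.47 and 2.70 in −Met+Hcy. No library overlapped, and the log2 fold change of -1.97 (SE 0.267, adjusted p = 0.0021) was called in all 23 alternatives. SLC1A1 (EAAT3, ENSG00000106688, chromosome 9, 4490468 to 4587469), which carries glutamate, aspartate and cysteine, had 4.76, 3.42 and 4.16 CPM in +Met and 1.96, 1.82 and 1.78 in −Met+Hcy. The −Met+Hcy libraries were close to each other and all lower, with a log2 fold change of -1.45 (SE 0.313, adjusted p = 0.0182). That call was lost in 5 fits, those without +Met replicate 1 or 3 or any −Met+Hcy library of HEK293T cells.

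SLC6A4 (ENSG00000108576, chromosome 17, 30194319 to 30236002), the serotonin transporter, had 6.01, 8.56 and 4.96 CPM in +Met and 4.56, 2.76 and 2.96 in −Met+Hcy, so that the nearest libraries were close. Its log2 fold change of -1.22 (SE 0.312, adjusted p = 0.0361) was called in 13 of 23 alternatives and was lost with any HEK293T library left out, without R1 +Met replicate 1 or 3, with the replicate number as a block, and without scaling factors. SLC36A4 (PAT4), a carrier of proline and tryptophan, passed the adjusted p alone. It had 22.9, 27.2 and 28.3 CPM and then 18.9, 20.7 and 19.1, with a fold change of -0.71 (adjusted p = 0.0396). None of the 4 lysosomal members (SLC36A1, SLC36A4, SLC38A7 and SLC38A9) was called by edgeR's quasi-likelihood test or by DESeq2. Of the 4, 1 had an unadjusted p under 0.05, where 22.4% of all genes did.

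Several abundant carriers did not pass in HEK293T cells with all libraries. Without R1 −Met+Hcy replicate 3, SLC6A8 (-0.67) and SLC1A3 (-0.59) passed by the adjusted p alone, at 0.0127 (0.00449 to 0.671 over the alternatives) and 0.0216 (0.00602 to 0.335). SLC6A8 had 221 ± 33.5 and 171 ± 38.5 CPM (+Met then −Met+Hcy), SLC6A15 119 ± 5.22 and 118 ± 6.78, and SLC1A3 48.5 ± 3.88 and 39.4 ± 4.23 (SD, n = 3). SLC43A1 (LAT3), a facilitated carrier of branched-chain amino acids and methionine, had 21.3 ± 2.42 and 32.99 ± 2.21 CPM, and its relative SLC43A2 (LAT4) had 3.41 ± 0.654 and 4.24 ± 0.794. Among genes under 1 CPM, SLC6A13, a carrier of GABA named here after its values were seen, was at 0 counts throughout +Met and at 11, 4 and 5 counts with homocysteine. That is at least 6.73-fold higher against a floor of 3 counts over the group, in counting error only, and it was not called (adjusted p = 0.0868). In the fit without R1 −Met+Hcy replicate 3, SLC6A13 was called higher, at an adjusted p of 0.0213 (0.0171 to 0.222 over the alternatives). So was SLC6A12, the betaine and GABA carrier, at 0.0276 (0.0238 to 0.436). Of the 25 counts of SLC6A13 in all libraries, 20 were in HEK293T −Met+Hcy. It passed the filter on summed counts through that group alone, so neither its p-values nor its floor is a separate test of a rise. The counts of SLC6A12 were 1, 1 and 1 and then 16, 3 and 8.

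**Figure D2:**
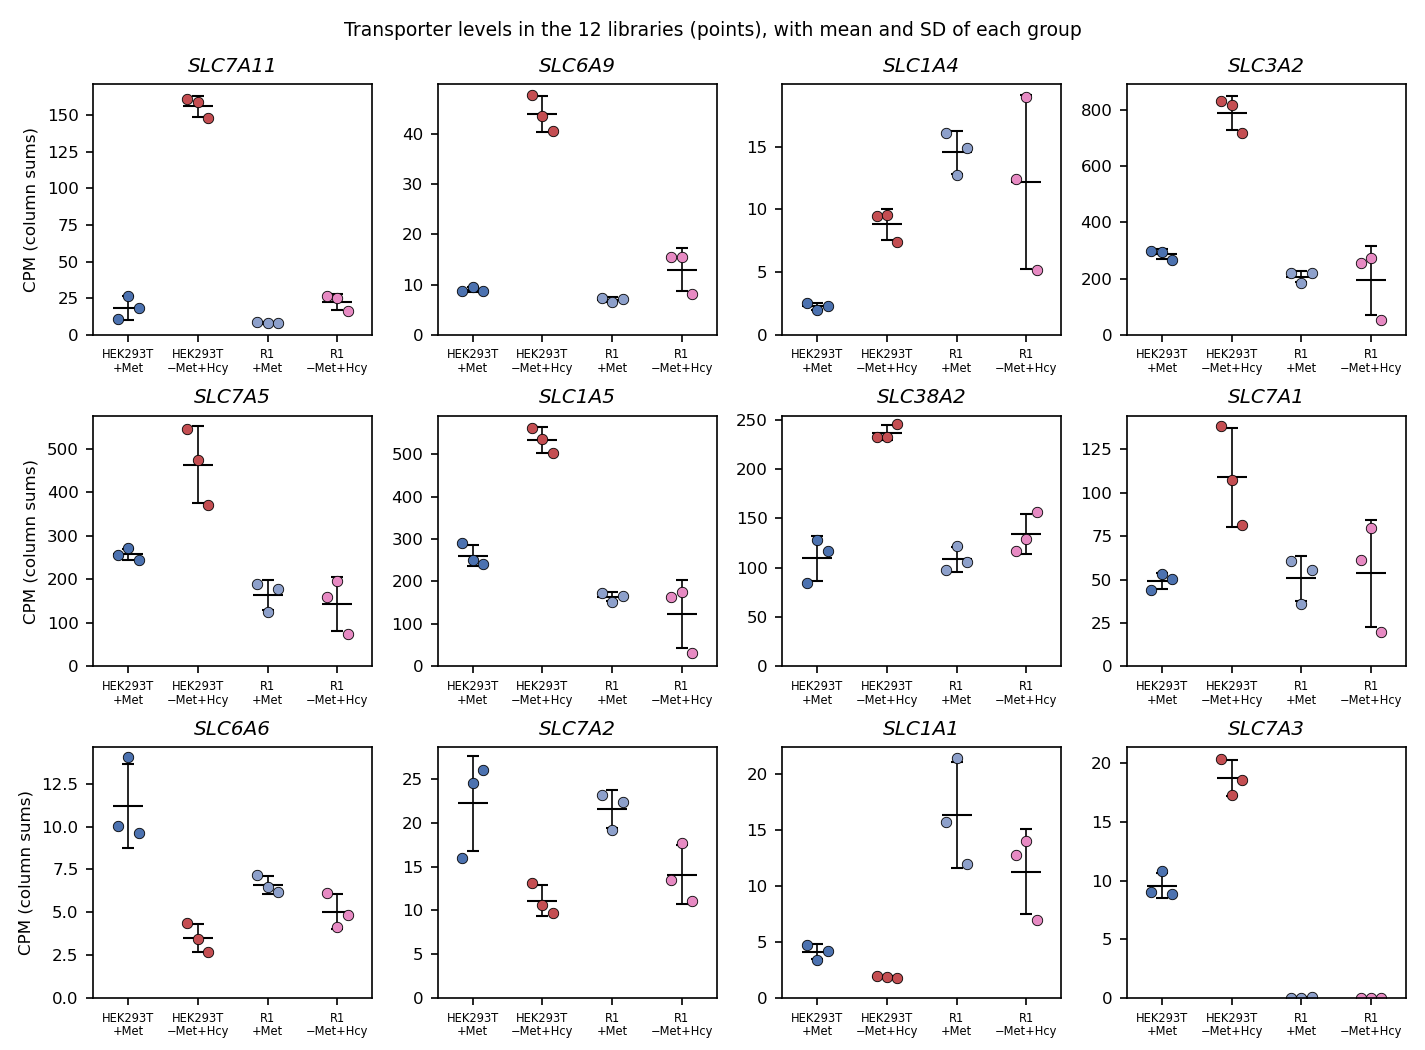
CPM from column sums of 12 members in each of the 12 libraries, with the mean and SD of each group, on linear axes from 0. SLC7A11, SLC6A9, SLC1A4 and SLC3A2 in HEK293T cells show separate media, SLC6A6 and SLC1A1 show lower −Met+Hcy libraries, and SLC7A3 lies at 0 in R1 cells apart from 1 count.

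Grouped by what they carry or by what is known to control them, the members differed. Of the 10 ATF4 targets, a list chosen with earlier results of these data known, all 10 had a log2 fold change above 0 in HEK293T cells. The range was 0.35 to 2.79 and the median 0.83. Of these, 3 were called (SLC7A11, SLC6A9 and SLC1A4), or 4 by DESeq2, which added SLC3A2. Of all genes, 3.04% were called higher, or 4.36% by DESeq2. The members as a whole had a median of 0.18 and all genes 0.03. Of the 13 carriers known to accept methionine, 10 were tested and 8 were above 0, with a median of 0.45, and edgeR's quasi-likelihood test and DESeq2 both called 0. At an unadjusted p under 0.05 there were 3 of the 10 (SLC7A8, SLC38A1 and SLC38A2), where 22.4% of all genes were. SLC38A2 passed by the adjusted p alone.

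**Figure D3:**
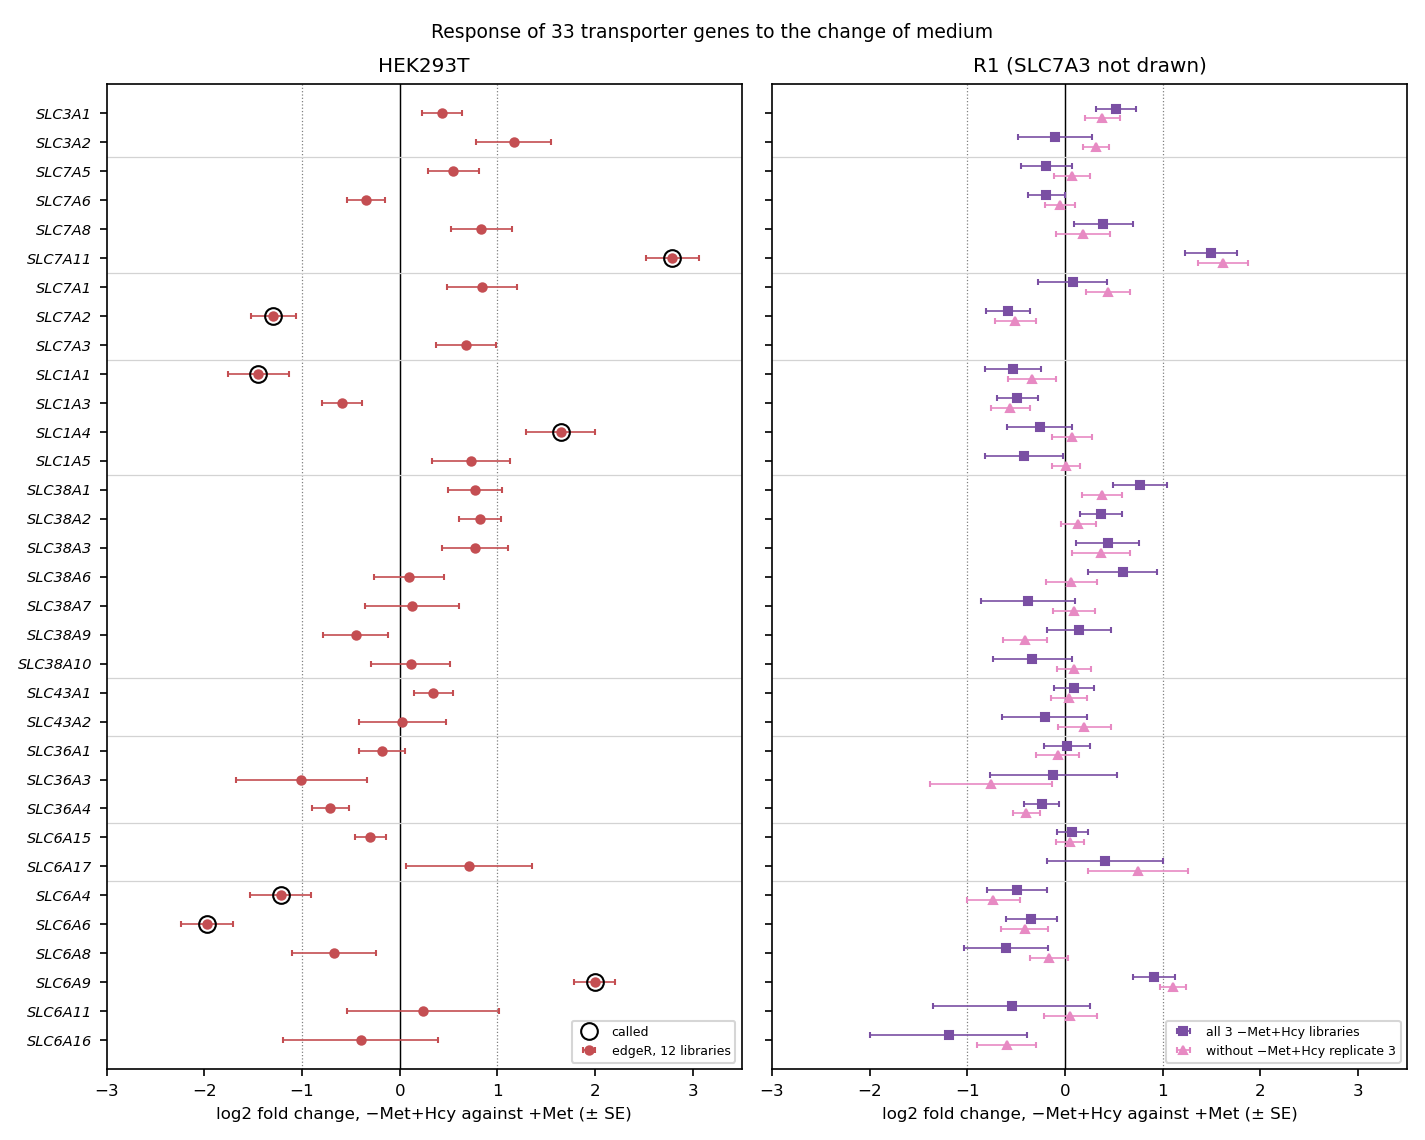
Log2 fold changes of −Met+Hcy against +Met with their SE for the 33 members of at least 1 CPM, grouped by family, in HEK293T cells (left) and R1 cells (right, with and without −Met+Hcy replicate 3). Rings mark the 7 called genes in HEK293T cells, from SLC7A11 at 2.79 to SLC6A6 at -1.97, and no gene is ringed in R1 cells. Of the 32 members drawn in both panels, 7 lie further from 0 in R1 than in HEK293T cells, or 3 without that library.

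In R1 cells the same change of medium gave no called member. None was called by edgeR's quasi-likelihood test, where 0.00583% of all genes (1 gene) were called. At an unadjusted p under 0.05 there were 7 members (16.7%, against 7.78% of all genes), and DESeq2 called 1, SLC7A11, where it called 25 genes higher and 3 lower of all 17162 (0.163%). Without overlap between media, 5 members (11.9%) were higher and 6 (14.3%) lower, against 5.22% and 4.87% of all genes. SLC7A11 had 8.58, 8.04 and 7.82 CPM in +Met and 26.4, 25.2 and 16.2 in −Met+Hcy. The media did not overlap, and the R1 −Met+Hcy libraries lay within the range of HEK293T cells in +Met. The log2 fold change was 1.49 (SE 0.267, adjusted p = 0.622). In DESeq2 it was 1.5 with an adjusted p of 0.000426, and over the alternatives the adjusted p ran from 0.000426 to 0.952.

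SLC6A9 in R1 cells had 7.31, 6.46 and 7.19 CPM in +Met and 15.4, 15.6 and 8.04 in −Met+Hcy, where replicate 3 was close to the +Met libraries. The log2 fold change was 0.91 (SE 0.211, adjusted p = 0.622). Without replicate 3 it was 1.10 (SE 0.131, adjusted p = 0.0107) and the gene was called, with a range of 0.00491 to 0.952 over the alternatives. Of the other ATF4 targets, SLC3A2, SLC7A5, SLC7A1, SLC1A4 and SLC1A5 were lower in replicate 3 than in replicates 1 and 2, and SLC38A2 was higher (157 CPM against 117 and 129). SLC3A2 had 219, 183 and 219 CPM in +Met and 257, 274 and 53.6 in −Met+Hcy, with a log2 fold change of -0.10, or 0.32 without replicate 3. SLC7A5 had 189, 125 and 177 and then 158, 195 and 74.4 CPM, and SLC7A1 had 60.7, 36.2 and 55.4 and then 61.2, 79.9 and 19.8. In both, the media overlapped. SLC1A4 overlapped too, with 12.39, 18.98 and 5.17 CPM in −Met+Hcy.

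The genes that were lower in HEK293T cells did not pass in R1 cells. SLC6A6 had 7.19, 6.46 and 6.16 CPM in +Met and 6.12, 4.15 and 4.85 in −Met+Hcy, lower in every library, with a log2 fold change of -0.34 (SE 0.259, adjusted p = 0.684). SLC7A2 had 23.2, 19.1 and 22.3 and then 13.5, 17.7 and 11.0 CPM, also without overlap, at -0.58 (SE 0.226, adjusted p = 0.622). SLC1A1 overlapped between media, with 15.7, 21.3 and 11.9 CPM in +Met and 12.76, 14.04 and 6.93 in −Met+Hcy. SLC38A1, like SLC38A3, was higher in every −Met+Hcy library, at 67.4, 47.2 and 75.3 CPM and then 75.5, 93.2 and 136, at 0.77 (SE 0.278, adjusted p = 0.622), or 0.38 without replicate 3.

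R1 −Met+Hcy replicate 3 weighs on these values. Of the 29 members with a summed count of at least 600, SLC7A3 left out since it had 1 count in R1 cells, 18 (62.1%) had the same sign of response in R1 as in HEK293T cells with all libraries, against 60.7% of 12264 genes with that count. Without replicate 3, 28 of 29 (96.6%) had the same sign, against 71.4% of the genes, and the exception was SLC6A15. The responses of the cell lines share no library, and Pearson's r across the 29 genes was 0.696 with it and 0.876 without it, a description over genes that are not independent. Relative to replicates 1 and 2, many GC-rich members were low in that library and several GC-poor members high. SLC3A2, at 57.8% GC, and SLC1A5, at 61.3%, were low, and SLC38A9, at 39.8%, and SLC38A1, at 41.3%, were high. SLC38A3, at 58.6%, and SLC43A1, at 58.0%, were GC-rich and were not low, and SLC7A11, at 35.4%, was GC-poor and was not high.

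**Figure D4:**
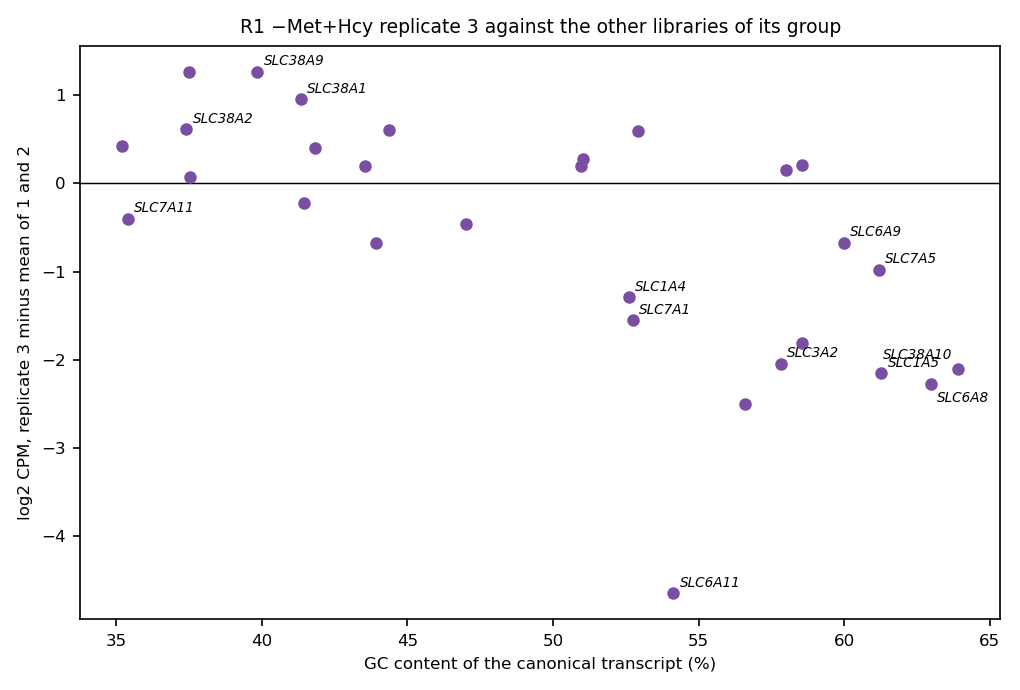
Difference in log2 CPM between R1 −Met+Hcy replicate 3 and the mean of replicates 1 and 2, against GC content of the canonical transcript in percent, with 1 point per member (members with a summed count of at least 600, SLC7A3 not drawn). Members at high GC, such as SLC6A8, SLC38A10, SLC1A5 and SLC3A2, lie below 0, and SLC38A9 and SLC38A1 lie above it.

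The difference between the responses was tested in itself, as the R1 response less the HEK293T response. No member was called by edgeR's quasi-likelihood test, where 0.0583% of all genes were called. At an unadjusted p under 0.05 there were 6 members (14.3%, against 9.67% of all genes), and DESeq2 called 3, where it called 54 genes higher and 117 lower of all 17162 (0.996%). SLC1A4 had a difference of -1.91 (SE 0.484, adjusted p = 0.259), and SLC6A6 a difference of 1.63 (SE 0.369, adjusted p = 0.189). Without R1 −Met+Hcy replicate 3 both were called, SLC1A4 at -1.58 (adjusted p = 0.0232, with 0.0111 to 0.658 over the alternatives) and SLC6A6 at 1.56 (adjusted p = 0.0327, with 0.00468 to 0.596). The third call of DESeq2 was SLC6A9, at -1.08 (adjusted p = 0.0308, with 0.0110 to 0.713).

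Of the ATF4 targets, SLC7A3 could not be read in this difference, with 1 count in R1 cells. The other 9 were all below 0, with a median of -1.08, or -0.72 without replicate 3, where all genes had a median of -0.06. SLC7A11 was at -1.30 (SE 0.369, adjusted p = 0.312) and SLC3A2 at -1.27 (SE 0.541, adjusted p = 0.496). Without replicate 3, SLC3A2 was at -0.85 and passed by the adjusted p alone (0.0411, with 0.0107 to 0.791 over the alternatives). In R1 cells alone, 5 of the 9 were above 0, with a median of 0.08, or 0.13 without replicate 3.

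In +Met medium, R1 cells differed from HEK293T cells in transporters of several families. SLC1A4, SLC1A1 and SLC38A3 were higher in R1, and SLC7A3, SLC7A11, SLC1A3, SLC43A1, SLC6A6 and SLC7A5 were lower. These 9 of 42 (21.4%) were called where 7.66% of all genes were. The 3 higher genes made 7.14% against 4.71%, and the 6 lower genes 14.3% against 2.95%. By the adjusted p alone, 3 were higher and 7 lower, against 5.69% and 4.48% of all genes. Without overlap, 10 members (23.8%) were higher and 10 lower, against 38.1% and 9.15% of all genes. Without scaling factors the log2 fold changes were higher by a median of 0.35, and 4 members were called higher and 3 lower in place of 3 and 6, and of all genes 1582 were higher and 224 lower in place of 808 and 507. This comparison shares its HEK293T +Met libraries with the HEK293T response and its R1 +Met libraries with the R1 response. A gene low in HEK293T +Met therefore has higher values in this comparison and in the HEK293T response. R1 is a single clone, and what belongs to the clone and what belongs to growth without methionine cannot be told apart.

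The largest ratio between the lines among the called members was in SLC7A3 (ENSG00000165349, X chromosome, 70925579 to 70931125), a cationic carrier. HEK293T cells had 144, 158 and 145 counts in +Met, and R1 cells had 0, 0 and 1. The ratio of the summed counts per depth was 460, with a 95% counting interval of 82.2 to 18223, and the adjusted p was 2.95e-05. In −Met+Hcy, HEK293T cells had 290, 294 and 283 counts and R1 cells 0 in every library, at least 296-fold higher in HEK293T cells against a floor of 3 counts over the group. The interval and the floor cover counting error only, because reads copied by PCR do not each stand for a molecule. The related SLC7A1 and SLC7A2 were not called, with 50.7 ± 12.9 against 49.4 ± 4.62 and 21.6 ± 2.15 against 22.2 ± 5.46 CPM (R1 then HEK293T, SD, n = 3).

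Among the SLC1 genes, 2 were called higher and 1 lower in R1. SLC1A4 had 16.1, 12.7 and 14.8 CPM in R1 +Met, all above the 1.99 to 2.57 CPM of HEK293T +Met and also above the 7.37 to 9.58 of HEK293T −Met+Hcy. Its log2 fold change was 2.31 (SE 0.358, adjusted p = 0.00227). SLC1A1 was higher in R1 at 1.64 (SE 0.3, adjusted p = 0.00574), with libraries at 11.9 to 21.3 CPM against 3.42 to 4.76. SLC1A3 (chromosome 5, 36596588 to 36688334) went the other way, with 21.8, 26.8 and 18.3 CPM against 44.1, 50.7 and 50.9, a log2 fold change of -1.47 (SE 0.207, adjusted p = 0.00135). All 3 calls held in the 23 alternatives. SLC1A5 had 174, 153 and 166 CPM against 289, 251 and 242, separate and lower in R1, with -1.02 (SE 0.400, adjusted p = 0.127). It was called in 5 of 23 alternatives, among them the fit without R1 −Met+Hcy replicate 3 (-1.02, SE 0.125, adjusted p = 0.000115, with 1.11e-05 to 0.317 over the alternatives).

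Of the heteromer genes, SLC7A11 and SLC7A5 were called lower in R1 in +Met. SLC7A11 was at -1.52 (SE 0.268, adjusted p = 0.00457) in all 23 alternatives, with 7.82 to 8.58 CPM against 10.6 to 26.6. SLC7A5 (chromosome 16, 87830023 to 87869507) was at -1.01 (SE 0.262, adjusted p = 0.0304), near the threshold on the fold, and was called in 13 of 23 alternatives. It was lost without any of the +Met libraries of either line, without HEK293T −Met+Hcy replicate 2, in the fit on the 6 libraries compared, with the replicate number as a block, and without scaling factors. SLC3A2 had 183 to 219 CPM against 265 to 297, at -0.82 (SE 0.383, adjusted p = 0.198), or an adjusted p of 0.000411 without R1 −Met+Hcy replicate 3 and 4.56e-05 to 0.479 over the alternatives. The ratio of SLC3A2 to the 6 light chains was 2.46 ± 0.264 in R1 and 2.31 ± 0.139 in HEK293T cells (SD, n = 3), with p = 0.5 in an exact permutation test.

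Of the remaining calls, SLC43A1 (chromosome 11, 57484534 to 57515780) had 12.6, 8.96 and 10.9 CPM in R1 against 19.7, 24.04 and 20.02, at -1.32 (SE 0.203, adjusted p = 0.00214), lost only without scaling factors among the alternatives. SLC6A6 was at -1.11 (SE 0.258, adjusted p = 0.019) and was lost without HEK293T +Met replicate 1 or 2, R1 +Met replicate 1 or 3, or the scaling factors. SLC38A3 (SNAT3, chromosome 3, 50205246 to 50221486), which carries glutamine and histidine, had 9.63, 5.49 and 9.55 CPM against 3.38, 2.95 and 1.41, at 1.31 (SE 0.336, adjusted p = 0.0287). It was called in 16 of 23 alternatives, and was lost without HEK293T +Met replicate 2 or 3, without R1 +Met replicate 1 or 3, with the replicate number as a block, and with the GC trend removed from all 12 libraries, with or without that block. SLC6A15 passed by the adjusted p alone, at -0.89 (adjusted p = 0.0053), with 76.3, 89.4 and 79.8 CPM against 113, 122 and 122. Without R1 −Met+Hcy replicate 3, SLC38A10 was called higher in R1 at 1.03 (SE 0.158, adjusted p = 0.000503, with 0.000284 to 0.313 over the alternatives), against an adjusted p of 0.134 with it. SLC38A10 had 103, 70.3 and 102 CPM in R1 and 37.2, 35.3 and 32.99 in HEK293T cells, with no overlap. SLC6A17 was called higher too without that library (adjusted p = 0.0353, with 0.0353 to 0.384 over the alternatives), and SLC6A8, SLC6A9, SLC6A11 and SLC7A8 passed by the adjusted p alone.

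Of the 10 ATF4 targets, 9 were below 0 in R1 against HEK293T cells in +Met, 4 of them called lower and SLC1A4 called higher, with a median of -0.91, where all members had a median of -0.34 and all genes of 0.02. Of the 10 tested methionine carriers, 8 were below 0 and SLC7A5 and SLC43A1 were called lower. Of all genes, 2.95% were called lower and 4.71% higher. The levels of SLC7A5 and SLC43A1 in R1 −Met+Hcy (143 ± 62.0 and 11.2 ± 1.74 CPM, SD, n = 3) stayed under those of HEK293T cells in +Met (257 ± 12.9 and 21.3 ± 2.42).

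**Figure D5:**
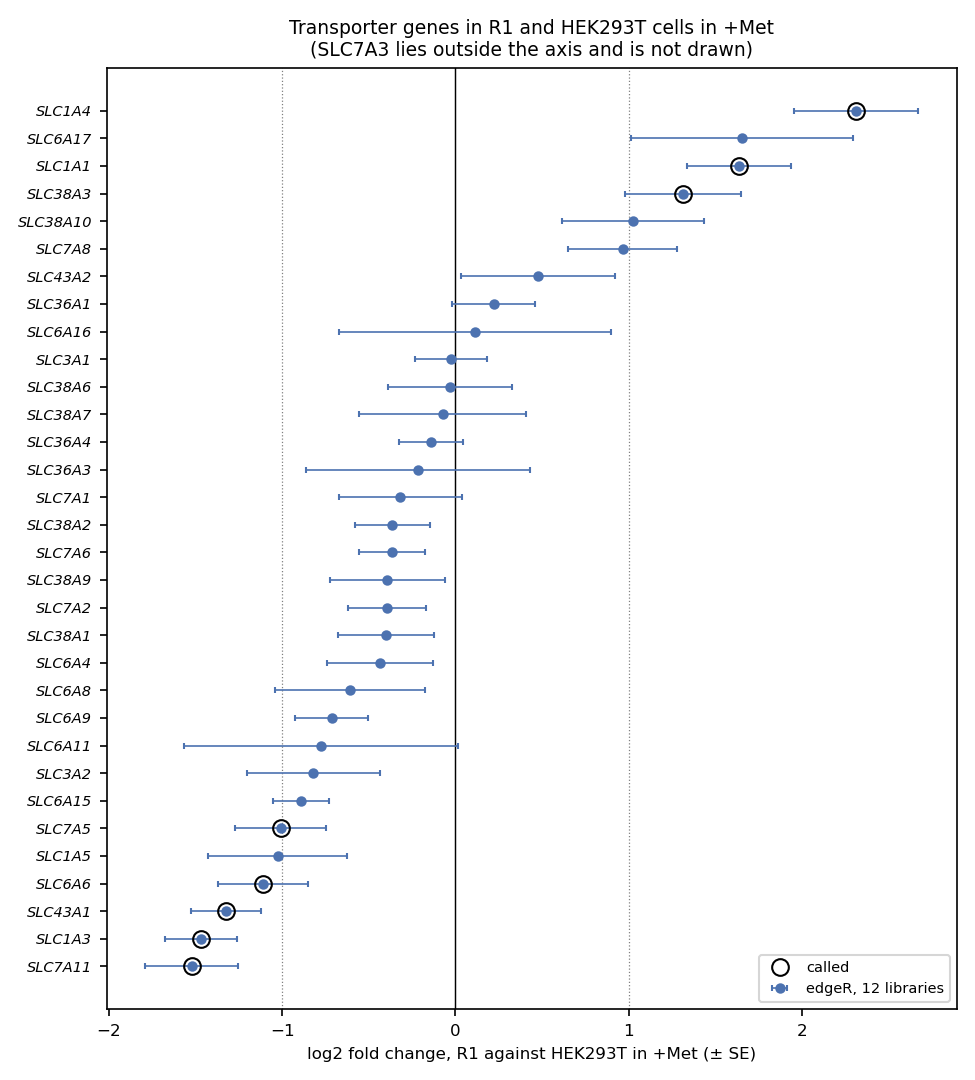
Log2 fold changes of R1 against HEK293T cells in +Met with their SE, for members of at least 1 CPM in a group, ordered by value. Rings mark called genes, from SLC1A4 at 2.31 to SLC7A11 at -1.52, and SLC7A3, with 447 counts in HEK293T and 1 in R1 cells, lies outside the axis.

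Amino acid carriers outside these families were read for context, as 26 genes of mitochondria, lysosomes, synaptic vesicles and the plasma membrane, of which 23 were tested. In HEK293T cells 0 were called between media by edgeR's quasi-likelihood test, where 4.63% of all genes were. At an unadjusted p under 0.05 there were 3 (against 22.4% of all genes), and DESeq2 called 0 (against 6.74%). SLC25A13, the aspartate and glutamate carrier of mitochondria, passed by the adjusted p alone, at -0.64 (adjusted p = 0.0388). In R1 against HEK293T cells in +Met, 1 of the 23 was called, where 7.66% of all genes were, and DESeq2 called 2 (10.6% of all genes). The gene called by edgeR was SFXN3, a mitochondrial serine carrier, at 1.55 (SE 0.371, adjusted p = 0.0214). SLC16A10 (TAT1), a carrier of aromatic amino acids, passed by the adjusted p alone at -0.81 (adjusted p = 0.0203).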

How the data were processed

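The 12 RNA libraries came from HEK293T and R1 cells kept 12 h with methionine or homocysteine. The authors quantified reads with kallisto 0.48.0 against GRCh38 (the annotation release is not given in the sources used here), and deposited estimated counts, with transcripts of a gene added and the sums turned into integers. Counts were tested in R 4.3.3 with edgeR 4.0.16 (TMM, summed count of at least 10, quasi-likelihood model with a mean per group, 8 residual degrees of freedom), in 4 comparisons, with Benjamini-Hochberg adjustment over 17162 genes. SE is the fold change over the root of F. The test was tried on simulated counts with known changes. CPM used column sums, and lengths and overlaps came from canonical transcripts of GENCODE 44.

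Members named are those called in a comparison, those with at least 20 CPM in a group, methionine carriers and ATF4 targets of at least 1 CPM, and both heavy chains. The members and the lists were chosen with earlier results of these data known. The alternatives were DESeq2 1.42.0, edgeR on the groups compared, RLE scaling, other filters, identical entries kept once, the replicate number as a block, removal of each library's trend with GC content, the adjusted p alone, another gene length, each library left out, and, chosen after seeing the data, column sums without scaling factors. The labels give no batch, so none was tested. The MB468 and R8 cells of the study were not analysed here.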

Additional observations from a re-analysis of the deposited data

How the results depend on the processing

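No called gene changed direction under an alternative. Without R1 −Met+Hcy replicate 3, 12 of the 42 R1 medium responses, none of them called, changed sign, SLC3A2 from -0.10 to 0.32 among them, and the median of all members went from -0.19 to 0.06. In HEK293T cells, members called higher went from 3 to 6 with edgeR on the groups compared and 7 with column sums. With the GC trend removed they went to 5, or 6 with R1 −Met+Hcy replicate 3 left out too. In each of these settings more of all genes were called higher than the 521 of the main fit (1211 with column sums). Such gains were therefore not particular to the members. Members called lower went from 4 to 2 with column sums, and all genes called lower from 273 to 103. DESeq2 called 1 higher in R1 cells, and 1 higher and 2 lower in the difference of the responses. With the GC trend removed, the difference had 1 higher and 1 lower, the same without R1 −Met+Hcy replicate 3. That last setting called 1 higher in R1 cells. In the difference, all genes called went from 0 higher and 10 lower to 54 and 117 with DESeq2. Both counts also rose with the GC trend removed. In R1 against HEK293T cells, 3 members were lower with column sums in place of 6, and 224 of all genes in place of 507. With each library left out in turn, members called ran from 2 to 6 higher and 1 to 4 lower in HEK293T cells. They ran from 0 to 1 higher and 0 lower in R1 cells, and 0 to 1 each way in the difference. In R1 against HEK293T cells they ran from 2 to 5 higher and 4 to 7 lower. The fewest lower members in HEK293T cells came without −Met+Hcy replicate 2. The 6 higher came without R1 −Met+Hcy replicate 3, where 1155 of all genes were called higher. That fit added SLC3A2, SLC6A12 and SLC6A13, the last of which passed the filter on summed counts only through HEK293T −Met+Hcy. The cause was not tested. Deviations of same-numbered libraries correlated at -0.067 to 0.484 in HEK293T and -0.470 to 0.074 in R1 cells. Since deviations within a group of 3 libraries sum to 0, these correlations cannot decide whether the replicate numbers pair the samples. With the replicate block, 3 members were higher and 3 lower in HEK293T cells, 0 in R1 cells and in the difference, and 2 higher and 5 lower in R1 against HEK293T cells. Low counts limit the 9 members tested at under 1 CPM, and 17 members could not be tested at this depth.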
